A study of Homo sapiens with 54 samples.

Results

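The 8 genes described here are NQO1, NQO2, POR, CYB5R1, CYB5R3, CRYZ, AIFM2 and CAT, which encode reductases that act on quinones or pass electrons to them and, as CAT, an enzyme that breaks down hydrogen peroxide. They were chosen by name, as the rows of the count table that carry these symbols, and are 8 of its 58870 genes. All 8 passed the filter on low counts in every fit. RNA sequencing was done on A549 cells, an established human lung adenocarcinoma line, that carried either an insertless control vector (EV cells) or an expression vector for USP18 (USP18 cells), an enzyme that removes the ubiquitin-like protein ISG15 from other proteins. The sources do not say how many engineered populations stood behind each vector. Both kinds of cell received the vehicle DMSO or a compound known by a code alone, for 48 h. The compounds were CP2 (2 or 5 µM), CP14 (1, 2.5 or 5 µM) and CP18 (1, 2.5 or 5 µM), so that vehicle and 8 compound doses in 2 kinds of cell made 18 groups of 3 libraries. The sources do not say which code is β-lapachone, a quinone that NQO1 is known to reduce. The 54 libraries held 16673228 to 25609062 expected counts each, with a median of 19701304. The paper says in general that its experiments were repeated as independent biological replicates, but nothing says of these libraries that the 3 replicates of a group were separate cultures. The p-values here thus measure the spread between these libraries, which may be technical.

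Quinones can be reduced by the transfer of an electron pair, which gives a hydroquinone, or of single electrons, which gives a semiquinone radical. Semiquinones can return their electron to oxygen, and the superoxide that forms is turned into hydrogen peroxide, which catalase and other peroxidases remove. NQO1 is known as a target of the transcription factor NRF2 (gene NFE2L2), and A549 cells are known for a mutated KEAP1, the protein that otherwise keeps NRF2 low.

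The libraries were checked against markers of the cell line. Among 5 epithelial genes, KRT8 had the highest median level, 3843 CPM, and ran from 1264 to 6319 CPM (counts scaled by library size and edgeR's TMM factors) over the 54 libraries. CDKN2A, which is deleted in A549 cells, had 0 counts in all 54 libraries. Of 8 markers of alveolar type II cells, SFTPA1 and SFTPB had 0 counts in all 54 libraries, as did the T cell gene CD3E, while ABCA3 ran from 32.4 to 99.6 CPM and LAMP3 from 0.114 to 40.2 CPM. These 8 summed to a group mean of 37.8 CPM in USP18 cells with 1 µM CP14, the lowest, and 120 CPM in USP18 cells with 5 µM CP14, the highest. A count of 0 allows up to 3 counts per library, and such limits cover counting error alone. USP18 averaged 9.53 to 11.0 CPM in the 9 EV groups and 981 to 2046 CPM in the 9 USP18 groups, highest with 5 µM CP14. The summed level of the 5 epithelial genes was lowest in USP18 cells with 5 µM CP14 (a group mean of 3122 CPM) and highest in EV cells with 1 µM CP14 (11524 CPM). KRT8 and KRT18 made up most of this sum. With vehicle, KRT8 averaged 6151 CPM in EV and 3729 CPM in USP18 cells, KRT18 5034 and 3447, CDH1 219 and 61.0 and EPCAM 12.3 and 2.81, while KRT19 went the other way, with 4.35 and 26.8. The 8 markers of other cells summed to between 47.3 and 121 CPM in single libraries, with the highest group mean, 120 CPM, also in USP18 cells with 5 µM CP14. CD68 was the most abundant of them, at 31.3 to 99.6 CPM, while PTPRC had 0 counts in 38 libraries. With vehicle, CD68 averaged 36.9 CPM in EV and 33.1 CPM in USP18 cells, ACTA2 24.8 and 10.6 and COL1A1 12.4 and 4.68. The part of these shifts in the levels of the 8 genes was not tested, and in bulk samples fewer cells of a type and less RNA per cell cannot be told apart.

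Levels of different genes were compared per kb of merged exons (GENCODE v44), in EV cells with vehicle. The sources disagree on the annotation behind the counts and on whether RNA was selected by poly(A) or by removal of rRNA, so lengths may differ from those counted and levels per kb are approximate. NQO1 stood at 591 CPM per kb, rank 43 of the 16752 genes ranked, that is within the top 0.257%. CRYZ (35.3 CPM per kb), POR (30.3) and CAT (29.4) came next among the 8 genes, followed by NQO2 (15.4), AIFM2 (13.1), CYB5R3 (9.19) and CYB5R1 (4.14). CYB5R1, the lowest of the 8, ranked 7616. In these cells NQO1 thus stood far over the other 7 genes by level per kb. In single libraries, expected counts of NQO1 ran from 12101 to 44555 and those of CYB5R1 from 284 to 548, so counting noise is larger for CYB5R1. Exons of AIFM2 overlap those of the opposite-strand gene MACROH2A2 (H2AFY2 in the table) over 19.2% of their bases, and while the kits named in the sources are stranded, the setting used in counting is not stated. H2AFY2 had a median of 799.5 counts, and its log2 fold change with 5 µM CP14 was -0.09 in EV cells (adjusted p = 0.22), while USP18 cells gave 0.09 (adjusted p = 0.24). H2AFY2 did differ by -0.43 between the vectors with vehicle (adjusted p = 1.3e-05) and by 0.30 with 2.5 µM CP14 in USP18 cells (adjusted p = 0.00047), where AIFM2 was not called. H2AFY2 was also higher with CP14 than with CP18 at 2.5 µM in USP18 cells (0.17, adjusted p = 0.034), where AIFM2 was again not called. CRYZ shares 6.29% of its exon bases with the opposite-strand gene TYW3, which with 5 µM CP14 fell by 0.36 in USP18 cells (adjusted p = 7.4e-05), in the direction of CRYZ, and had -0.16 in EV cells (adjusted p = 0.056). In EV cells at 5 µM, TYW3 was lower with CP14 than with CP18 (-0.28, adjusted p = 0.0033) and higher with CP2 than with CP14 (0.24, adjusted p = 0.0049), again in the direction of CRYZ. In USP18 cells the same 2 differences of TYW3 were larger, at -0.45 (adjusted p = 2.6e-05) and 0.50 (adjusted p = 1.6e-06), also in the direction of CRYZ. With vehicle TYW3 was higher in USP18 cells by 0.14 (adjusted p = 0.042), opposite to CRYZ. NQO2 shares 12% with the same-strand LINC01011, which had 19 to 56 counts, and CYB5R3 shares 9.93% with a same-strand gene that the count table lacks. The opposite-strand transcript that overlaps NQO1 had 0 or 1 counts in every library.

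Promoter sequences are shown for NQO1 and CAT, which both fell with 5 µM CP14, and for NQO2 and AIFM2, which both rose. RefSeq windows on GRCh38.p14 reach from 250 bases before to 50 bases after a start site, and were found for 6 of the 8 genes, not for POR or CYB5R1. The windows are chr16:69726511-69726810, minus strand, for NQO1, chr11:34438684-34438983, plus strand, for CAT, chr6:2999644-2999943, plus strand, for NQO2, and chr10:70132776-70133075, minus strand, for AIFM2. Each is written 5′ to 3′ on the strand of its gene, with capitals for matches to the core of the antioxidant response element (TGACNNNGC or, on the other strand, GCNNNGTCA), the GC box (GGGCGG or CCGCCC) or the CCAAT box (CCAAT or ATTGG).
NQO1: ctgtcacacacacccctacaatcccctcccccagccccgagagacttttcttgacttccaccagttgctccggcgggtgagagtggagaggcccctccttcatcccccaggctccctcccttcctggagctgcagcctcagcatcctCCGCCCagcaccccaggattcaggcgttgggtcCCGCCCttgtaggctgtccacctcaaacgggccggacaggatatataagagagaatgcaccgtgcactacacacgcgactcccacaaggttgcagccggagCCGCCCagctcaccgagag
CAT: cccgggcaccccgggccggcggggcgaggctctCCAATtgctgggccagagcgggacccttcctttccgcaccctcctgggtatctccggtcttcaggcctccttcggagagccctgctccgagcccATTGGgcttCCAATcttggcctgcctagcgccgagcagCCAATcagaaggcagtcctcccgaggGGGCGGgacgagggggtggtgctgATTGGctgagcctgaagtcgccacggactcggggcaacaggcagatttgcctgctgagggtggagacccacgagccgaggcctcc
NQO2: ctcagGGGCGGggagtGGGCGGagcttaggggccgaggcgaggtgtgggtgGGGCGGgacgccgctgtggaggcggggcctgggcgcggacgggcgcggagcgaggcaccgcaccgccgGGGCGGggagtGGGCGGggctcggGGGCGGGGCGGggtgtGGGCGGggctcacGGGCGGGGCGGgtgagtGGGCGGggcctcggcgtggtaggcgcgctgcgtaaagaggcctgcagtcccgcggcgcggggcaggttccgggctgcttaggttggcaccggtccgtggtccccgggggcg
AIFM2: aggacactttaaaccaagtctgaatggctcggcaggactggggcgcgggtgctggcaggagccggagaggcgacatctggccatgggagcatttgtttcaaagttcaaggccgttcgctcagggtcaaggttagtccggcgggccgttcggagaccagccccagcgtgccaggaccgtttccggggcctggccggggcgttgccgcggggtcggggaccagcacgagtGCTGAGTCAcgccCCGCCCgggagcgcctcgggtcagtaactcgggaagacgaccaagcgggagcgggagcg
The response element core occurred in 13.3% of all 35116 promoter windows of this length, the GC box in 45%, the CCAAT box in 34.6% and TATAAA or its reverse complement in 11.5%. AIFM2 had 1 match to the response element core, with its first base 22 bases before the start site, and 1 of the 3 windows of CYB5R3 had another. NQO1 had 3 GC boxes and 0 response element cores in its window, which cannot show a core farther upstream than 250 bases. CAT had 5 CCAAT boxes and 1 GC box, and NQO2 had 11 GC boxes, some of which share a base. TATAAA was found in 0 of the 6 genes' windows. These are matches of letters in short windows, not sites of binding.

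**Figure D1:**
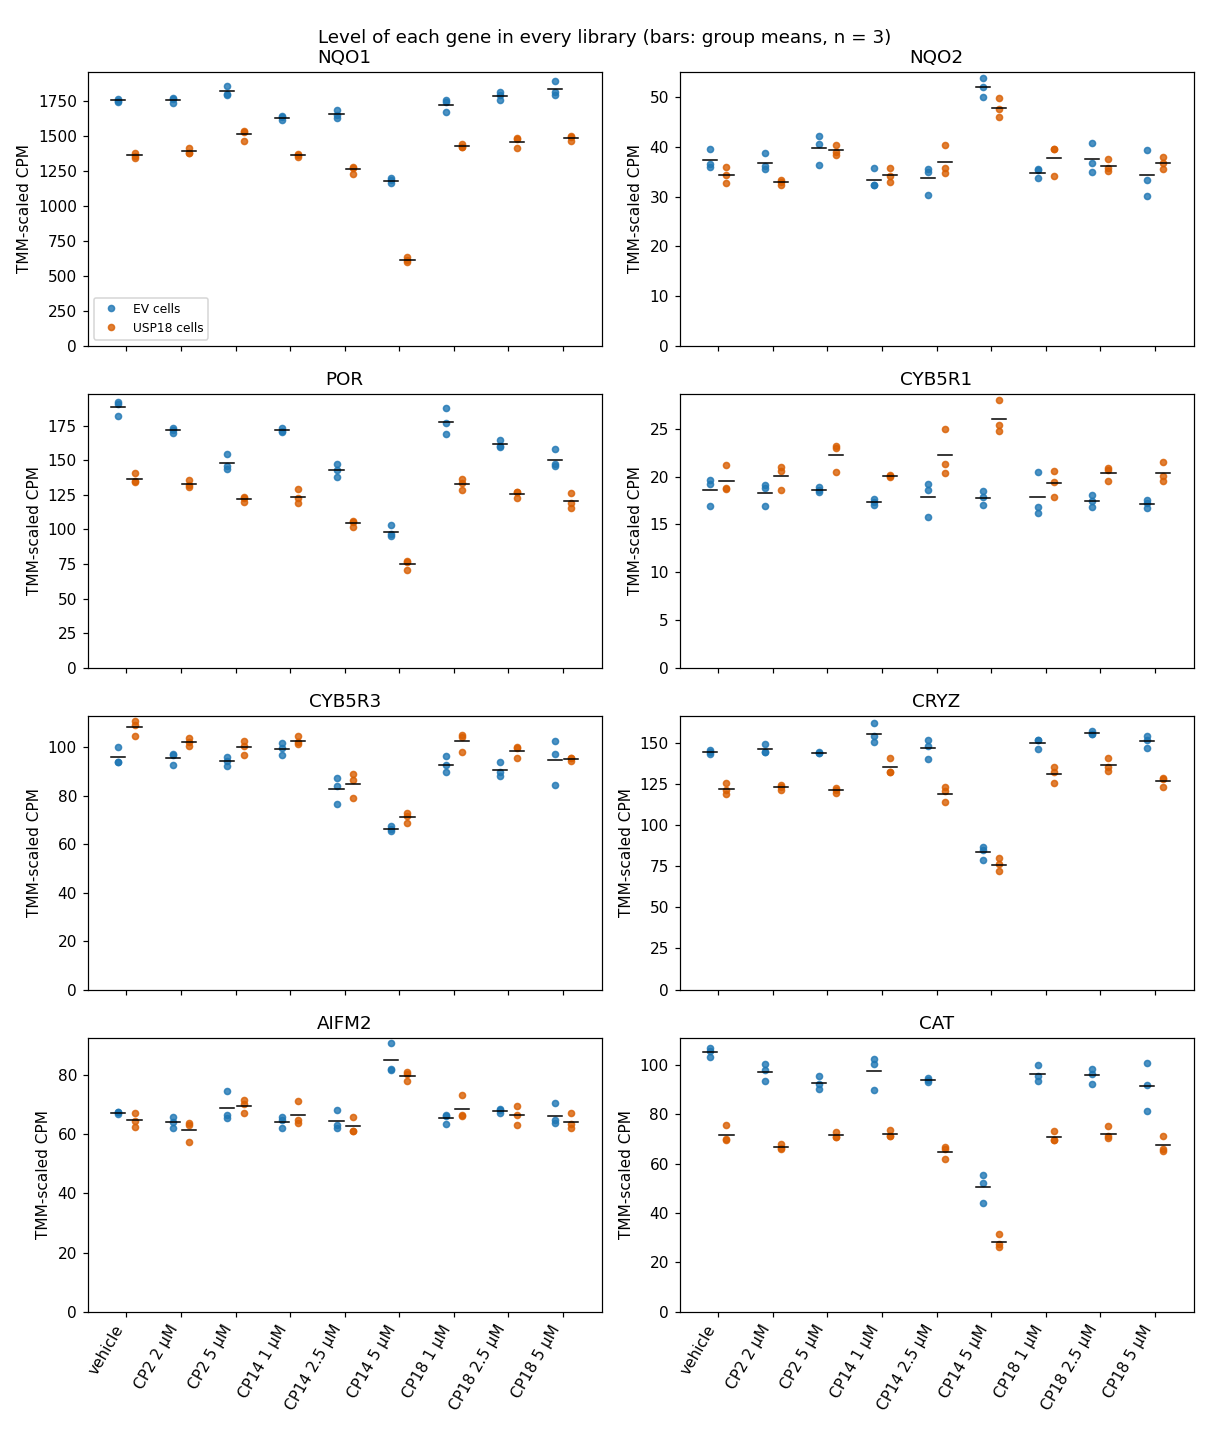
Level of each of the 8 genes (vertical axis, TMM-scaled CPM from 0) in each of the 54 libraries, by compound and dose (horizontal axis), with EV cells in blue and USP18 cells in orange and bars at the means of 3 libraries. At 5 µM CP14, NQO1 lay between 599 and 635 CPM in USP18 cells, while NQO2 reached 54.0 CPM in EV cells.

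NQO1 (ENSG00000181019.13, chromosome 16 from 69706996 to 69726668 of GRCh38) encodes NAD(P)H quinone dehydrogenase 1, which reduces quinones by an electron pair. Gene versions are given here as in the count table and positions as in GENCODE v44, where NQO2, POR, CYB5R3 and CAT have a later version. Its 3 vehicle libraries per vector stood at 1753, 1749 and 1768 CPM in EV cells and 1346, 1381 and 1361 CPM in USP18 cells. Those with 5 µM CP14 stood at 1184, 1164 and 1201 CPM in EV cells and 612, 599 and 635 CPM in USP18 cells. All 3 USP18 libraries were lower than all 3 EV libraries under both conditions, and 5 µM CP14 put every library lower than every vehicle library of its vector. Such non-overlap, in either direction, was common over all genes. It held for 62.6% of the genes tested between the vectors with vehicle. Between 5 µM CP14 and vehicle it held for 67.1% in EV and 71.4% in USP18 cells. These shares also stand beside the non-overlap of the other genes described here. With 1 µM CP14, the libraries stood at 1616, 1643 and 1640 CPM in EV cells and 1370, 1352 and 1366 CPM in USP18 cells, and with 2.5 µM at 1628, 1650 and 1692 and 1231, 1272 and 1283 CPM. The EV libraries lay lower than vehicle at both doses, whereas in USP18 cells 1 µM overlapped vehicle and 2.5 µM lay lower. Of all genes, 17.2% and 33.1% did not overlap at 1 and 2.5 µM in EV cells, and 45.1% at 2.5 µM in USP18 cells. CP18 at 1, 2.5 and 5 µM gave 1759, 1743 and 1677 CPM, then 1798, 1756 and 1817 CPM, then 1796, 1896 and 1821 CPM in EV cells. In USP18 cells the same doses gave 1420, 1423 and 1442 CPM, then 1482, 1412 and 1489 CPM, then 1465, 1500 and 1492 CPM. These libraries overlapped vehicle in EV cells at 1 and 2.5 µM and lay higher than vehicle at 5 µM and at all 3 doses in USP18 cells. Of all genes, 23.2% did not overlap at 5 µM in EV cells, and 32.1%, 29.8% and 34.5% at the 3 doses in USP18 cells. NQO1 was not called by edgeR at 5 µM in EV cells or at 1 µM in USP18 cells. CP2 at 2 and 5 µM gave 1739, 1773 and 1769 CPM and then 1804, 1798 and 1862 CPM in EV cells, and 1382, 1380 and 1416 CPM and then 1469, 1536 and 1534 CPM in USP18 cells. In both vectors 2 µM overlapped vehicle and 5 µM lay higher. Of all genes, 27.5% in EV and 38.7% in USP18 cells did not overlap at 5 µM CP2, and NQO1 was not called there in EV cells.

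By group mean, NQO1 was highest in EV cells with 5 µM CP18 (1838 ± 52.4 CPM, SD, n = 3) and lowest in USP18 cells with 5 µM CP14 (615 ± 18.5 CPM), a ratio of 2.99. All EV groups other than 5 µM CP14 came before all USP18 groups in this order, and EV cells with 5 µM CP14 came at rank 17 of 18. Of the 17 pairs of neighbours in the order, 5 differed by more than the sum of their SDs, after ranks 8, 12, 15, 16 and 17. The other neighbours did not differ beyond their spread, the 8 highest EV groups among them. With vehicle, NQO1 was lower in USP18 cells, at a log2 fold change of -0.37 (standard error, SE, 0.024, adjusted p = 3.9e-10). At 5 µM CP14 it fell by 0.58 on the log2 scale in EV cells (SE 0.030, adjusted p = 3.7e-13), to 67.1% of vehicle. In USP18 cells at 5 µM CP14 it fell by 1.15 (SE 0.031, adjusted p = 3.1e-18), to 44.9% of vehicle and past a log2 fold change of 1. The difference between these changes, tested as the interaction of treatment and vector (USP18 minus EV), was -0.58 (95% interval -0.67 to -0.49, adjusted p = 3.4e-09).

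At the lower doses and with the other compounds, the changes of NQO1 were small against its level. In EV cells it fell by 0.11 on the log2 scale with 1 µM CP14 (adjusted p = 0.015) and fell by 0.09 with 2.5 µM CP14 (adjusted p = 0.027). In USP18 cells it fell by 0.11 with 2.5 µM CP14 (adjusted p = 0.0026). It rose in USP18 cells with 5 µM CP2 (log2 fold change 0.14, adjusted p = 0.0036), 2.5 µM CP18 (0.10, adjusted p = 0.0084) and 5 µM CP18 (0.11, adjusted p = 0.0499). The interaction at 1 µM CP14 was 0.10 (adjusted p = 0.034, 95% interval 0.05 to 0.16). Some of these calls were lost with 1 library fewer while the log2 fold change moved little. The EV call at 1 µM CP14 was lost without treated EV replicate 1 or 2 or vehicle EV replicate 1 (adjusted p = 0.0543 to 0.081, log2 fold change -0.11 to -0.10), and with all 54 libraries in one fit (adjusted p = 0.070). The EV call at 2.5 µM CP14 was lost without treated EV replicate 1 or 2 or any vehicle EV library (adjusted p = 0.055 to 0.11, log2 fold change -0.09 to -0.08), and without a filter on low counts (adjusted p = 0.077). The call at 2.5 µM CP18 was lost without vehicle USP18 replicate 1 (adjusted p = 0.0522, log2 fold change 0.09). The call at 5 µM CP18 was lost without any library of its 2 groups or vehicle EV replicate 1 (adjusted p = 0.070 to 0.17, log2 fold change 0.11 to 0.13), and with 3 other settings (adjusted p = 0.0533 to 0.079).

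The interaction of NQO1 at 1 µM CP14 was lost when any 1 of 8 of the 12 libraries was dropped, namely each treated EV library, treated USP18 replicate 1, and replicates 1 and 3 of either vehicle group (adjusted p = 0.0518 to 0.096, log2 difference 0.09 to 0.11). It was also lost without a filter on low counts (adjusted p = 0.066), with a replicate block (adjusted p = 0.056) and with all 54 libraries in one fit (adjusted p = 0.13). The changes of NQO1 with 5 µM CP14 and their interaction kept their calls under every alternative tried and with each library dropped in turn.

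NQO2 (ENSG00000124588.20, chromosome 6 from 2987987 to 3019755) encodes a relative of NQO1 that uses dihydronicotinamide riboside rather than NAD(P)H as its electron donor. Vehicle libraries of NQO2 stood at 39.7, 36.5 and 36.0 CPM in EV cells and 32.8, 34.3 and 36.0 CPM in USP18 cells. NQO2 at 5 µM CP14 stood at 54.0, 50.1 and 52.0 CPM and 47.7, 46.1 and 49.9 CPM. All 6 libraries with 5 µM CP14 were higher than all 6 vehicle libraries, and the 2 vectors overlapped with vehicle. NQO2 averaged 33.5 ± 1.98, 33.7 ± 2.82 and 52.0 ± 1.91 CPM at 1, 2.5 and 5 µM CP14 in EV cells, and 34.3 ± 1.40, 37.0 ± 2.98 and 47.9 ± 1.92 CPM in USP18 cells. NQO2 averaged 34.9 ± 0.984, 37.6 ± 3.00 and 34.3 ± 4.73 CPM at 1, 2.5 and 5 µM CP18 in EV cells, and 37.8 ± 3.13, 36.2 ± 1.20 and 36.8 ± 1.27 CPM in USP18 cells. NQO2 averaged 36.8 ± 1.69 and 39.8 ± 3.04 CPM at 2 and 5 µM CP2 in EV cells, and 32.9 ± 0.458 and 39.3 ± 1.06 CPM in USP18 cells. The 2 groups with 5 µM CP14 were the highest of the 18. Neighbours in the order differed by more than the sum of their SDs after ranks 1 and 2 alone. NQO2 rose with 5 µM CP14 by a log2 fold change of 0.47 in EV cells (SE 0.055, adjusted p = 1.7e-07). In USP18 cells its log2 fold change was also 0.47 (adjusted p = 1.6e-07); the interaction was 0.00 (95% interval -0.16 to 0.16, adjusted p = 1.0). With vehicle, USP18 against EV cells gave -0.12 (adjusted p = 0.090), which was not called. A rise with 5 µM CP2 in USP18 cells (0.18, adjusted p = 0.043) was lost without any of the 6 libraries of its groups (adjusted p = 0.0508 to 0.18), with a replicate block (adjusted p = 0.055) and with DESeq2 (adjusted p = 0.064). NQO2 was thus opposite in direction to NQO1 at 5 µM CP14, in either vector.

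POR (ENSG00000127948.16, chromosome 7 from 75899200 to 75986855) encodes cytochrome P450 oxidoreductase, which passes single electrons from NADPH to P450 enzymes and can reduce quinones to semiquinones. Vehicle libraries of POR stood at 192, 191 and 182 CPM in EV cells and 135, 135 and 141 CPM in USP18 cells. POR at 5 µM CP14 stood at 95.4, 96.5 and 103 CPM and 76.5, 70.6 and 77.5 CPM. The 4 groups did not overlap, with vehicle EV cells highest and USP18 cells under 5 µM CP14 lowest. POR averaged 172 ± 1.32, 143 ± 4.76 and 98.3 ± 4.05 CPM at 1, 2.5 and 5 µM CP14 in EV cells, and 124 ± 4.95, 104 ± 2.06 and 74.9 ± 3.73 CPM in USP18 cells. POR averaged 178 ± 9.33, 162 ± 2.45 and 151 ± 6.78 CPM at 1, 2.5 and 5 µM CP18 in EV cells, and 133 ± 3.77, 126 ± 2.35 and 121 ± 5.40 CPM in USP18 cells. POR averaged 172 ± 1.81 and 148 ± 5.68 CPM at 2 and 5 µM CP2 in EV cells, and 133 ± 2.37 and 122 ± 1.90 CPM in USP18 cells. Vehicle had the highest mean in either vector. In the order of the 18 groups, 6 of the 17 pairs of neighbours differed by more than the sum of their SDs. POR was lower in USP18 cells with vehicle (log2 fold change -0.46, SE 0.030, adjusted p = 5.2e-10).

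The log2 fold change of POR against vehicle was negative in all 16 treatment contrasts, from -0.94 to -0.04, and 12 of them were called. These contrasts share the vehicle libraries of their vector and are not independent of each other. With 5 µM CP14, POR fell by 0.94 on the log2 scale in EV cells (SE 0.041, adjusted p = 1.8e-14), to 52.0% of vehicle, and fell by 0.88 in USP18 cells (SE 0.043, adjusted p = 8.5e-14). Its interaction was 0.07 (95% interval -0.06 to 0.19, adjusted p = 0.45) and was not called. With 2.5 µM CP14, POR fell by 0.40 in EV cells (adjusted p = 1.9e-06) and fell by 0.39 in USP18 cells (adjusted p = 1.9e-07). With 5 µM CP2 it fell by 0.34 in EV cells (adjusted p = 7.6e-06) and fell by 0.17 in USP18 cells (adjusted p = 0.0030). With 5 µM CP18 it fell by 0.32 in EV cells (adjusted p = 0.00034) and fell by 0.20 in USP18 cells (adjusted p = 0.0095), and with 2.5 µM CP18 it fell by 0.22 (adjusted p = 0.00014) and fell by 0.12 (adjusted p = 0.013). POR also changed by -0.15 with 1 µM CP14 in USP18 cells (adjusted p = 0.0056) and by -0.13 with 2 µM CP2 in EV cells (adjusted p = 0.014). The last was lost without treated EV replicate 1 or vehicle EV replicate 1 or 2 (adjusted p = 0.074 to 0.082) and with all 54 libraries in one fit (adjusted p = 0.11). In USP18 cells, the call at 2.5 µM CP18 was lost without treated replicate 1 or vehicle replicate 3 (adjusted p = 0.068 to 0.079), and that at 5 µM CP18 without treated replicate 1 or 3 or vehicle replicate 3 (adjusted p = 0.055 to 0.071).

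CYB5R1 (ENSG00000159348.13, chromosome 1 from 202961873 to 202967275) encodes a reductase of the cytochrome b5 reductase family. Vehicle libraries of CYB5R1 stood at 16.9, 19.6 and 19.2 CPM in EV cells and 18.7, 21.2 and 18.8 CPM in USP18 cells. CYB5R1 at 5 µM CP14 stood at 17.8, 18.5 and 17.0 CPM and 24.7, 25.4 and 28.0 CPM. The USP18 libraries with 5 µM CP14 were higher than those of the other 3 groups, and in EV cells 5 µM CP14 overlapped vehicle. CYB5R1 averaged 17.3 ± 0.299, 17.9 ± 1.88 and 17.8 ± 0.747 CPM at 1, 2.5 and 5 µM CP14 in EV cells, and 20.0 ± 0.0935, 22.2 ± 2.39 and 26.1 ± 1.75 CPM in USP18 cells. CYB5R1 averaged 17.8 ± 2.32, 17.4 ± 0.624 and 17.1 ± 0.398 CPM at 1, 2.5 and 5 µM CP18 in EV cells, and 19.3 ± 1.36, 20.4 ± 0.755 and 20.4 ± 1.04 CPM in USP18 cells. CYB5R1 averaged 18.3 ± 1.22 and 18.6 ± 0.293 CPM at 2 and 5 µM CP2 in EV cells, and 20.0 ± 1.26 and 22.2 ± 1.49 CPM in USP18 cells. The 9 USP18 groups had the 9 highest means, but 0 of the 17 pairs of neighbours in the order differed by more than the sum of their SDs. CYB5R1 rose in USP18 cells with 5 µM CP14 (log2 fold change 0.40, SE 0.076, adjusted p = 7.3e-05). In EV cells its log2 fold change was -0.07 (95% interval -0.23 to 0.10, adjusted p = 0.48). The interaction was 0.47 (95% interval 0.24 to 0.70, adjusted p = 0.0027), called under every alternative tried and with each library dropped in turn. The vectors with vehicle differed by 0.08 (adjusted p = 0.42), and the other 14 treatment contrasts were not called.

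CYB5R3 (ENSG00000100243.21, chromosome 22 from 42615730 to 42720870) encodes the main cytochrome b5 reductase, which passes electrons from NADH to cytochrome b5 and at membranes to coenzyme Q. Vehicle libraries of CYB5R3 stood at 100, 94 and 94 CPM in EV cells and 105, 109 and 111 CPM in USP18 cells. CYB5R3 at 5 µM CP14 stood at 67.4, 65.3 and 66.0 CPM and 72.9, 68.5 and 71.6 CPM. The USP18 libraries were higher than the EV libraries in both conditions, and 5 µM CP14 put all 6 libraries lower than all 6 vehicle libraries. CYB5R3 averaged 99.3 ± 2.43, 82.5 ± 5.39 and 66.2 ± 1.06 CPM at 1, 2.5 and 5 µM CP14 in EV cells, and 103 ± 1.82, 84.8 ± 5.08 and 71.0 ± 2.25 CPM in USP18 cells. CYB5R3 averaged 92.8 ± 3.27, 90.5 ± 3.08 and 94.7 ± 9.21 CPM at 1, 2.5 and 5 µM CP18 in EV cells, and 102 ± 4.03, 98.5 ± 2.43 and 95.2 ± 0.713 CPM in USP18 cells. CYB5R3 averaged 95.5 ± 2.54 and 94.1 ± 1.82 CPM at 2 and 5 µM CP2 in EV cells, and 102 ± 1.60 and 100.0 ± 2.89 CPM in USP18 cells. USP18 cells with vehicle were the highest of the 18 groups, and the 4 groups with 2.5 or 5 µM CP14 were the lowest. With vehicle, CYB5R3 was higher in USP18 cells (log2 fold change 0.17, SE 0.035, adjusted p = 0.00035). At 5 µM CP14 it fell by 0.54 on the log2 scale in EV cells (adjusted p = 1.8e-10) and fell by 0.61 in USP18 cells (adjusted p = 1.2e-11). Its interaction was -0.07 (95% interval -0.19 to 0.05, not called). With 2.5 µM CP14 it fell by 0.22 in EV cells (adjusted p = 0.0053) and fell by 0.35 in USP18 cells (adjusted p = 2.0e-05).

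Smaller falls of CYB5R3 in USP18 cells were called with 5 µM CP18 (-0.20, adjusted p = 0.028), 2.5 µM CP18 (-0.14, adjusted p = 0.014) and 5 µM CP2 (-0.12, adjusted p = 0.031). The first was lost without any of the 6 libraries of its groups (adjusted p = 0.0531 to 0.13). The call at 2.5 µM CP18 was lost without treated replicate 3 or vehicle replicate 2 or 3 of USP18 cells (adjusted p = 0.058 to 0.077). The call at 5 µM CP2 was lost without treated replicate 1 or 2 or vehicle replicate 2 or 3 of USP18 cells (adjusted p = 0.065 to 0.11), without a filter on low counts (adjusted p = 0.077) and with all 54 libraries in one fit (adjusted p = 0.072).

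CRYZ (ENSG00000116791.14, chromosome 1 from 74705482 to 74733408) encodes zeta-crystallin, an NADPH-dependent quinone reductase that transfers single electrons. Vehicle libraries of CRYZ stood at 146, 143 and 144 CPM in EV cells and 119, 125 and 121 CPM in USP18 cells. CRYZ at 5 µM CP14 stood at 84.7, 78.5 and 86.8 CPM and 76.0, 71.9 and 79.8 CPM. The USP18 libraries were lower than the EV libraries with vehicle, overlapped them with 5 µM CP14, and 5 µM CP14 put all 6 libraries lower than all vehicle libraries. CRYZ averaged 155 ± 5.85, 147 ± 5.74 and 83.3 ± 4.36 CPM at 1, 2.5 and 5 µM CP14 in EV cells, and 135 ± 4.70, 119 ± 4.67 and 75.9 ± 3.92 CPM in USP18 cells. CRYZ averaged 149.8 ± 3.11, 156 ± 1.11 and 151 ± 3.72 CPM at 1, 2.5 and 5 µM CP18 in EV cells, and 131 ± 4.82, 136 ± 3.94 and 127 ± 2.98 CPM in USP18 cells. CRYZ averaged 146 ± 2.82 and 144 ± 0.484 CPM at 2 and 5 µM CP2 in EV cells, and 123 ± 1.75 and 121 ± 1.72 CPM in USP18 cells. The 8 EV groups other than 5 µM CP14 had the 8 highest means, and the order broke beyond the summed SDs after rank 8 and after rank 16. With vehicle, CRYZ was lower in USP18 cells (log2 fold change -0.25, SE 0.029, adjusted p = 1.2e-06). At 5 µM CP14 it fell by 0.80 on the log2 scale in EV cells (SE 0.042, adjusted p = 4.3e-13), to 57.5% of vehicle, and fell by 0.69 in USP18 cells (adjusted p = 5.3e-12). The interaction was 0.11 (95% interval -0.01 to 0.24, adjusted p = 0.18).

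At lower doses CRYZ rose in USP18 cells, by a log2 fold change of 0.15 with 1 µM CP14 (adjusted p = 0.0058), 0.16 with 2.5 µM CP18 (adjusted p = 0.0011) and 0.10 with 1 µM CP18 (adjusted p = 0.042). In EV cells it rose by 0.11 with 2.5 µM CP18 (adjusted p = 0.031). The call at 1 µM CP18 was lost without treated USP18 replicate 1 or 3, vehicle EV replicate 1 or 2, or any vehicle USP18 library (adjusted p = 0.0518 to 0.23), and in 5 of the alternatives (adjusted p = 0.055 to 0.068). The EV call was lost without any library of its 2 groups (adjusted p = 0.058 to 0.11), without a filter on low counts (adjusted p = 0.0534) and with all 54 libraries in one fit (adjusted p = 0.079). CRYZ was thus called higher in 4 treatment contrasts and lower in 2, those with 5 µM CP14.

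AIFM2 (ENSG00000042286.15, chromosome 10 from 70098223 to 70132934) encodes FSP1, which reduces coenzyme Q at the plasma membrane and is known for protection from ferroptosis. Vehicle libraries of AIFM2 stood at 67.5, 67.1 and 67.4 CPM in EV cells and 67.1, 64.5 and 62.5 CPM in USP18 cells. AIFM2 at 5 µM CP14 stood at 82.2, 91.0 and 81.9 CPM and 78.1, 81.1 and 80.5 CPM. All 6 libraries with 5 µM CP14 were higher than all 6 vehicle libraries, and the vectors overlapped with vehicle. AIFM2 averaged 64.3 ± 1.89, 64.4 ± 3.22 and 85.0 ± 5.16 CPM at 1, 2.5 and 5 µM CP14 in EV cells, and 66.6 ± 3.98, 62.7 ± 2.82 and 79.9 ± 1.57 CPM in USP18 cells. AIFM2 averaged 65.4 ± 1.58, 68.0 ± 0.853 and 66.4 ± 3.69 CPM at 1, 2.5 and 5 µM CP18 in EV cells, and 68.7 ± 3.99, 66.4 ± 3.18 and 64.2 ± 2.67 CPM in USP18 cells. AIFM2 averaged 64.1 ± 1.82 and 69.0 ± 4.93 CPM at 2 and 5 µM CP2 in EV cells, and 61.4 ± 3.47 and 69.7 ± 2.18 CPM in USP18 cells. The 2 groups with 5 µM CP14 were the highest. Neighbours in the order differed by more than the sum of their SDs after rank 2 alone. With 5 µM CP14, AIFM2 rose by a log2 fold change of 0.33 in EV cells (SE 0.044, adjusted p = 1.2e-06) and 0.30 in USP18 cells (SE 0.045, adjusted p = 4.6e-06). Its interaction was -0.03 (95% interval -0.17 to 0.10, adjusted p = 0.74). The vectors with vehicle differed by -0.06 (adjusted p = 0.23), and the other 14 treatment contrasts, from -0.08 to 0.10, were not called.

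CAT (ENSG00000121691.6, chromosome 11 from 34438934 to 34472060) encodes catalase, the peroxisomal enzyme that splits hydrogen peroxide, and is the member that is not a reductase. Vehicle libraries of CAT stood at 105, 107 and 103 CPM in EV cells and 69.7, 69.8 and 75.5 CPM in USP18 cells. CAT at 5 µM CP14 stood at 51.9, 44.1 and 55.3 CPM and 31.4, 27.2 and 26.2 CPM. The 4 groups did not overlap, in the order vehicle EV, vehicle USP18, treated EV and treated USP18. CAT averaged 97.5 ± 6.70, 93.8 ± 0.845 and 50.5 ± 5.74 CPM at 1, 2.5 and 5 µM CP14 in EV cells, and 72.0 ± 1.46, 64.8 ± 2.46 and 28.3 ± 2.77 CPM in USP18 cells. CAT averaged 96.2 ± 3.15, 95.7 ± 3.14 and 91.3 ± 9.68 CPM at 1, 2.5 and 5 µM CP18 in EV cells, and 70.7 ± 1.97, 72.1 ± 2.53 and 67.4 ± 3.21 CPM in USP18 cells. CAT averaged 97.3 ± 3.53 and 92.7 ± 2.62 CPM at 2 and 5 µM CP2 in EV cells, and 66.7 ± 0.96 and 71.4 ± 1.04 CPM in USP18 cells. The order of the 18 groups broke beyond the summed SDs after ranks 8, 16 and 17, with the 8 EV groups other than 5 µM CP14 highest. CAT was lower in USP18 cells with vehicle, at 68.3% of EV cells (log2 fold change -0.55, SE 0.037, adjusted p = 7.4e-10). At 5 µM CP14 it fell by 1.07 on the log2 scale in EV cells (SE 0.065, adjusted p = 5.2e-12), to 47.8% of vehicle. In USP18 cells at 5 µM CP14 it fell by 1.35 (SE 0.071, adjusted p = 3.5e-13), to 39.3% of vehicle. The interaction was -0.28 (95% interval -0.48 to -0.08, adjusted p = 0.035).

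That interaction of CAT was lost when any 1 of 7 of the 12 libraries was dropped, namely treated EV replicate 1 or 3, treated USP18 replicate 2 or 3, vehicle EV replicate 1 or 3, or vehicle USP18 replicate 3 (adjusted p = 0.055 to 0.12, log2 difference -0.29 to -0.21). With 2.5 µM CP14, CAT fell by 0.17 in EV cells (adjusted p = 0.0067) and fell by 0.15 in USP18 cells (adjusted p = 0.010). The USP18 call was lost without treated replicate 1 or vehicle replicate 3 (adjusted p = 0.0528 to 0.076) and with all 54 libraries in one fit (adjusted p = 0.055). In EV cells CAT also fell by 0.17 with 5 µM CP2 (adjusted p = 0.0065), fell by 0.13 with 2.5 µM CP18 (adjusted p = 0.042) and fell by 0.20 with 5 µM CP18 (adjusted p = 0.0495). The call at 2.5 µM CP18 was lost without any treated EV library, vehicle EV replicate 1 or 2, or vehicle USP18 replicate 1 or 2 (adjusted p = 0.0503 to 0.15), with a replicate block (adjusted p = 0.0516) and with all 54 libraries in one fit (adjusted p = 0.21). The call at 5 µM CP18 was lost when any 1 of 11 of the 12 libraries was dropped, all but treated EV replicate 2 (adjusted p = 0.059 to 0.17, log2 fold change -0.21 to -0.13), with a replicate block (adjusted p = 0.073) and with only its 2 groups fitted (adjusted p = 0.14).

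**Figure D2:**
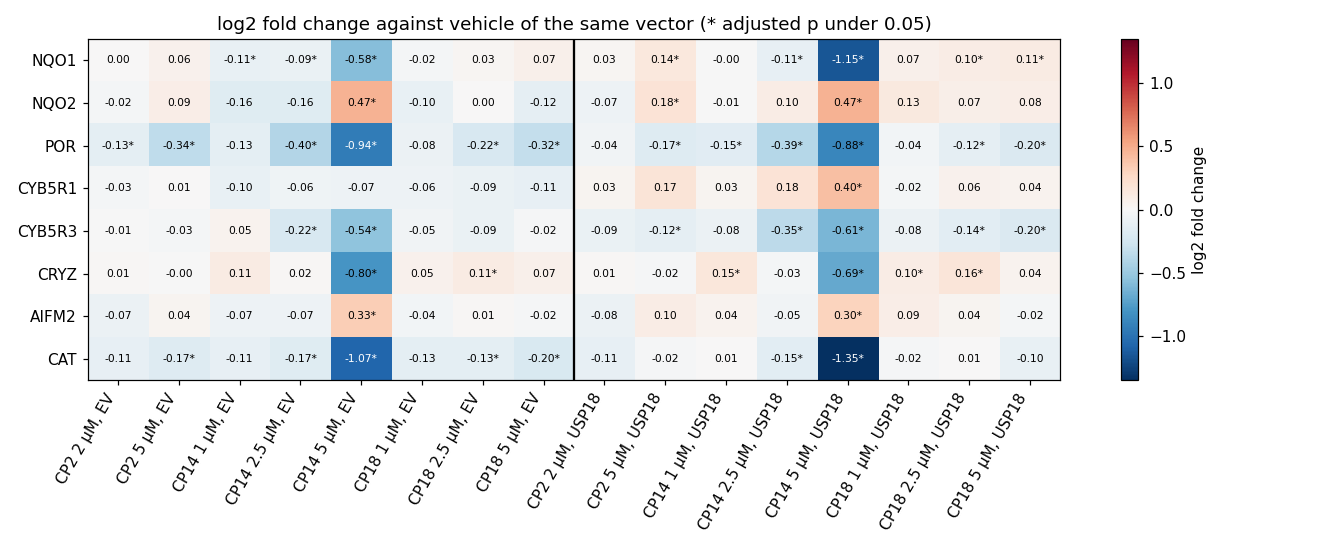
Log2 fold change against the vehicle of the same vector for the 8 genes (rows) in the 16 treatment contrasts (columns, EV cells left and USP18 cells right), with colour and number giving the value and a star an adjusted p under 0.05. The 2 columns of 5 µM CP14 hold the largest values, down to -1.35 for CAT, and POR is negative in all 16 columns.

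Set side by side for the USP18 vector without compound, NQO1, POR, CRYZ and CAT were lower in USP18 cells, CYB5R3 was higher, and NQO2, CYB5R1 and AIFM2 were not called. In all, 5 of the 8 genes were called, where 57.6% of the 15252 genes tested were called. Lower were 4 of the 8, beside 28.7% of all genes, and higher was 1 of the 8, beside 29.0%. The share called is near that of all genes and is not a result about these 8. CAT had the largest difference (-0.55) and CYB5R3 the smallest called (0.17). For the 3 genes not called, the 95% intervals ran from -0.24 to 0.00 for NQO2, from -0.09 to 0.24 for CYB5R1 and from -0.14 to 0.03 for AIFM2. An effect of USP18 and any other difference between the cells with the 2 vectors cannot be told apart.

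The comparison of 5 µM CP14 with vehicle asks how the genes respond to the highest dose of this compound. In EV cells NQO1, POR, CYB5R3, CRYZ and CAT fell, NQO2 and AIFM2 rose, and CYB5R1 was not called. That is 7 of the 8 genes called, beside 63.2% of the 15947 genes tested, with 5 lower (32.1% of all genes) and 2 higher (31.0%). CAT alone of the 8 passed a log2 fold change of 1 in EV cells (-1.07), as 13.8% of all genes did, and it did not pass it without CP14 EV replicate 2 (-0.98). In USP18 cells all 8 genes were called, beside 68.6% of all genes, with 5 lower (34.3% of all genes) and 3 higher (34.4%). NQO1 and CAT, 2 of the 8, passed a log2 fold change of 1 there, as 18.0% of all genes did. The interaction was called for NQO1, CYB5R1 and CAT, 3 of the 8 genes, beside 27.7% of all genes. NQO1 and CAT changed further downward in USP18 cells (2 lower, beside 14.4% of all genes) and CYB5R1 upward (1 higher, beside 13.3%). For the other 5 genes, the 95% intervals of the difference all lay between -0.19 and 0.24. With most genes called at this dose, the total shares called do not set the 8 genes apart. The median log2 fold change of the 8 genes was -0.56 in EV cells and -0.65 in USP18 cells, beside 0.01 for all genes in either vector. Whether the 8 genes differ from all genes in direction was not tested.

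**Figure D3:**
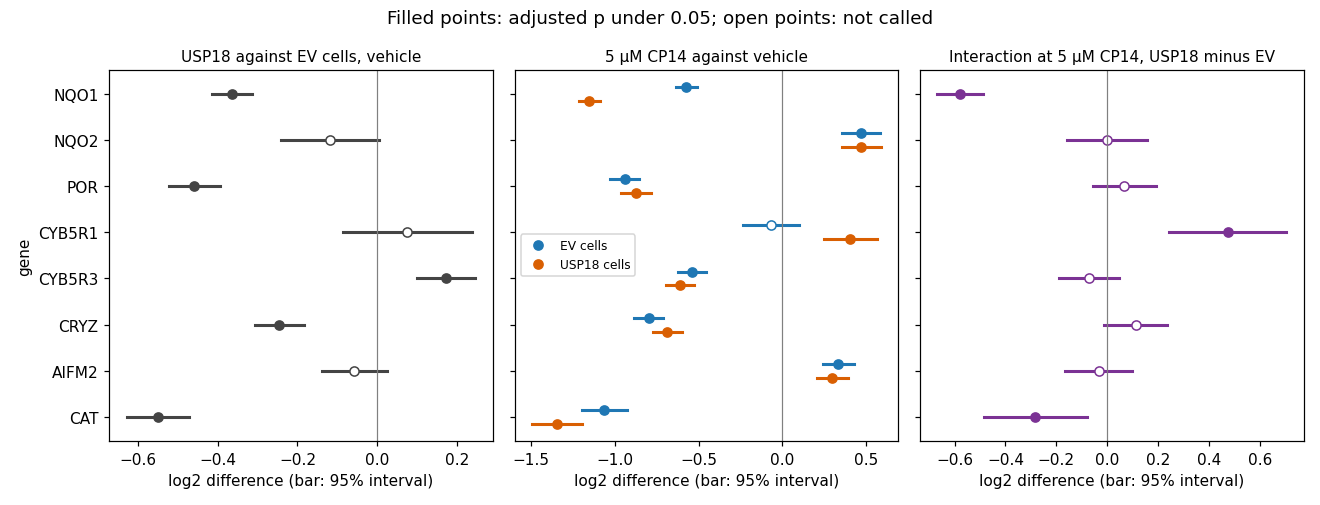
Log2 differences of the 8 genes with 95% intervals (bars): USP18 against EV cells with vehicle (left), 5 µM CP14 against vehicle in EV (blue) and USP18 (orange) cells (middle), and the interaction, USP18 minus EV (right). Filled points have an adjusted p under 0.05. NQO1 stands at -0.58 in the right panel, CYB5R1 at 0.47 and CAT at -0.28.

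At the lower doses of CP14, POR, CYB5R3 and CAT fell with 2.5 µM in both vectors, and NQO1 fell slightly. At 2.5 µM, 4 of the 8 genes were called in EV cells (15.1% of all genes) and the same 4 in USP18 cells (32.7%), namely NQO1, POR, CYB5R3 and CAT. At 1 µM, NQO1 was the 1 gene called by edgeR in EV cells (0.861% of all genes), and POR and CRYZ were the 2 called in USP18 cells (15.3%). POR in EV cells was called in 4 alternatives, DESeq2 among them (adjusted p = 0.014 to 0.038). The interaction at 1 µM was called for NQO1 alone, 1 of the 8 (5.79% of all genes). At 2.5 µM the interaction was called by edgeR for 0 of the 8 (8.00% of all genes), with 1 at an unadjusted p under 0.05 and 0 by DESeq2. NQO1 itself had an interaction of -0.02 at 2.5 µM (95% interval -0.10 to 0.05), unlike at 5 µM, though the doses were not compared by a test.

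With CP18, POR fell with 2.5 and 5 µM in both vectors. At 5 µM, POR and CAT were the 2 genes called in EV cells (8.40% of all genes), and NQO1, POR and CYB5R3 the 3 in USP18 cells (10.7%). At 2.5 µM, POR, CRYZ and CAT were the 3 called in EV cells (5.96%), and NQO1, POR, CYB5R3 and CRYZ the 4 in USP18 cells (14.2%). At 1 µM, CRYZ was the 1 called by edgeR in USP18 cells (15.7%). DESeq2 called NQO1 there instead (log2 fold change 0.06, adjusted p = 0.031) and not CRYZ (adjusted p = 0.068), and a replicate block also called NQO1 (adjusted p = 0.0498). In EV cells 1 µM gave 0 calls of the 8 by edgeR (0.368% of all genes), with 2 at an unadjusted p under 0.05 and 0 by DESeq2, which gave no adjusted p to 2 of the 8. Interactions with CP18 were called by edgeR for 0 of the 8 at 1 µM (7.19% of all genes), with 2 at an unadjusted p under 0.05. DESeq2 called 1 there, NQO1 (0.09, adjusted p = 0.039). At 2.5 µM edgeR called 0 of the 8 (0.197%), with 3 at an unadjusted p under 0.05, and at 5 µM 0 (0.268%), with 1, and DESeq2 called 0 at both doses, without an adjusted p for 2 of the 8 genes at 2.5 µM.

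With CP2, POR fell with 5 µM in both vectors and with 2 µM in EV cells. At 5 µM, POR and CAT were the 2 genes called in EV cells (12.1% of all genes), and NQO1, NQO2, POR and CYB5R3 the 4 in USP18 cells (19.0%). At 2 µM, POR was the 1 gene called in EV cells (1.84%). In USP18 cells 2 µM gave 0 calls by edgeR (1.13% of all genes), with 2 of the 8 at an unadjusted p under 0.05 and 0 by DESeq2. Interactions with CP2 were called by edgeR for 0 of the 8 at 2 µM (0.0569% of all genes), with 1 at an unadjusted p under 0.05, and for 0 at 5 µM (0.920%), with 2. DESeq2 called 0 at either dose, and at 2 µM it gave no adjusted p to 5 of the 8 genes. Over all 16 treatment contrasts, 46 of 128 member tests were called, beside 17.9% of the tests of all genes, and over the 8 interactions 4 of 64, beside 6.29%. These pooled tests share genes and vehicle libraries.

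The compounds were compared with each other at matched doses, in fits without vehicle libraries, over 10 contrasts and 80 member tests, of which 37 were called, beside 28.1% of the tests of all genes. At 5 µM, CP14 left NQO1, POR, CYB5R3, CRYZ and CAT lower than CP18 did, and NQO2 and AIFM2 higher, in both vectors. These are 7 of the 8 genes in EV cells (57.5% of all genes called) and, with CYB5R1, 8 of 8 in USP18 cells (64.9%). NQO1 was lower with CP14 by a log2 difference of -0.64 in EV cells (SE 0.041, adjusted p = 6.7e-11) and -1.26 in USP18 cells (SE 0.042, adjusted p = 1.8e-15). For CAT the difference was -0.86 in EV cells (adjusted p = 4.2e-08), and USP18 cells gave -1.24 (adjusted p = 3.0e-10). For NQO2 it was 0.60 (adjusted p = 1.5e-06) and 0.39 (adjusted p = 0.00015). NQO1 and CAT, 2 of the 8, passed a log2 difference of 1 in USP18 cells, as 17.0% of all genes did. CYB5R1 differed by 0.05 in EV cells (95% interval -0.11 to 0.21) and by 0.36 in USP18 cells (adjusted p = 0.00022).

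CP2 at 5 µM against CP14 gave the same genes called, 7 of 8 in EV cells (59.4% of all genes) and 8 of 8 in USP18 cells (67.5%). NQO1 was higher with CP2, by 0.63 in EV cells (adjusted p = 4.7e-11), and USP18 cells gave 1.31 (adjusted p = 1.0e-15). POR was higher by 0.60 (adjusted p = 2.0e-09) and 0.72 (adjusted p = 1.2e-10), and CAT by 0.89 (adjusted p = 2.4e-09) and 1.35 (adjusted p = 8.1e-12). Past a log2 difference of 1 in USP18 cells were NQO1 and CAT, 2 of the 8, beside 17.5% of all genes. The call of CYB5R1 in USP18 cells (-0.22, adjusted p = 0.010) was lost without CP2 USP18 replicate 1 (adjusted p = 0.077, log2 difference -0.16). This contrast shares the CP14 libraries with the one of CP14 against CP18, so the agreement of the genes called is not independent.

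CP2 and CP18 at 5 µM gave 0 calls of the 8 by edgeR in either vector (0.0257% of all genes in EV cells and 0.00641% in USP18 cells), and DESeq2 also called 0. At an unadjusted p under 0.05 there was 1 gene in EV cells, NQO2, and 0 in USP18 cells. NQO1 differed by -0.01 in EV cells (95% interval -0.09 to 0.07) and 0.03 in USP18 cells (-0.05 to 0.11). POR differed by -0.02 (-0.12 to 0.08) and 0.02 (-0.08 to 0.12), and CAT by 0.03 (-0.11 to 0.16) and 0.08 (-0.05 to 0.22). NQO2 had the widest interval in EV cells, 0.04 to 0.39 around 0.21. For CYB5R1, CYB5R3, CRYZ and AIFM2 the intervals lay between -0.15 and 0.28. These intervals bound the differences and do not show that the compounds act alike.

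At 2.5 µM, CP14 against CP18 gave NQO1 and POR as the 2 genes called in EV cells (1.80% of all genes) and NQO1, POR, CYB5R3, CRYZ and CAT as the 5 in USP18 cells (28.2%), all lower with CP14. In USP18 cells NQO1 differed by -0.21 (adjusted p = 3.3e-05), POR by -0.26 (adjusted p = 1.9e-05), CYB5R3 by -0.21 (adjusted p = 0.0031), CRYZ by -0.19 (adjusted p = 0.00096) and CAT by -0.15 (adjusted p = 0.011). In EV cells NQO1 differed by -0.12 (adjusted p = 0.0466) and POR by -0.18 (adjusted p = 0.011). The EV call of NQO1 was lost without any EV library, without CP14 USP18 replicate 2 or without CP18 USP18 replicate 1 (adjusted p = 0.064 to 0.19), and with RLE size factors (adjusted p = 0.0511). The EV call of POR was lost without CP14 replicate 1 or 3 or CP18 replicate 2 or 3 of EV cells (adjusted p = 0.055 to 0.074), and the USP18 call of CAT without replicate 1 of either compound (adjusted p = 0.057 to 0.069). NQO2, CYB5R1 and AIFM2 were not called in either vector, with intervals in USP18 cells of -0.12 to 0.18, -0.04 to 0.29 and -0.18 to 0.02.

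At 1 µM, CP14 against CP18 gave 0 calls of the 8 by edgeR in either vector (0.0191% of all genes in EV cells and 0.0191% in USP18 cells), and DESeq2 also called 0, without an adjusted p for 1 and 2 of the genes. At an unadjusted p under 0.05 there were 2 of the 8 in EV cells and 3 in USP18 cells. NQO1 differed by -0.08 in EV cells (95% interval -0.13 to -0.03) and -0.07 in USP18 cells (-0.11 to -0.02). POR differed by -0.05 (-0.13 to 0.03) and -0.10 (-0.19 to -0.02). Over all 8 genes, the intervals lay between -0.26 and 0.23. No structure is given in the sources for these codes, so that no difference is tied to one.

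**Figure D4:**
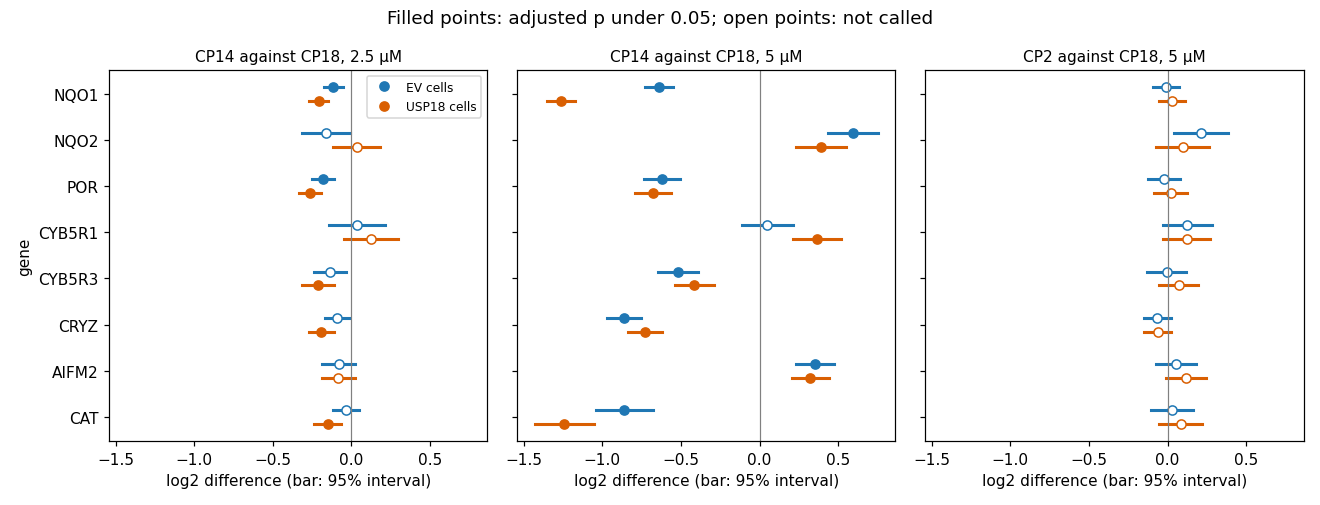
Log2 difference of the 8 genes between compounds at matched doses with 95% intervals (bars), in EV (blue) and USP18 (orange) cells: CP14 against CP18 at 2.5 µM (left) and 5 µM (middle), and CP2 against CP18 at 5 µM (right). Filled points have an adjusted p under 0.05. In USP18 cells NQO1 differs by -1.26 in the middle panel and by 0.03 in the right one, where 0 points are filled.

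The genes with which the 8 work were described from lists, by counts and medians, with the shares and median of all genes tested given once per contrast. With vehicle, 19 of 23 other NRF2 targets were lower in USP18 cells and 3 higher, with a median log2 fold change of -0.42, against 28.7% lower, 29.0% higher and a median of -0.01 for all genes. AKR1C1 (-1.78), AKR1B10 (-1.76) and AKR1C2 (-1.62), which reduce carbonyls and quinones, had the largest differences among them. Of 23 other quinone and carbonyl reductases, 12 were lower and 6 higher (median -0.14), with CYB5R2 higher by 3.19 (SE 0.23). Of 17 enzymes of hydrogen peroxide and superoxide, 9 were lower and 6 higher (median -0.10), GPX1 (-0.78) and SOD1 (-0.59) among the lower. Of 17 electron partners of POR and CYB5R3, 11 were lower and 5 higher (median -0.35), with HMOX1 at -1.58 and cytochrome b5 (CYB5A) at -1.51. Of 13 coenzyme Q synthesis genes, 7 were lower and 3 higher (median -0.12), and of 16 peroxisome partners of CAT 4 were lower and 6 higher (median -0.09). Of 11 NRF2 regulators, 6 were higher and 4 lower (median 0.10), with MAFF at 1.85 and BACH1 at 0.43. This list holds NFE2L2 itself and also KEAP1, so its counts and median mix opposite roles. NFE2L2 itself differed by -0.03 (adjusted p = 0.37) and KEAP1 by 0.10 (adjusted p = 0.018).

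With 5 µM CP14, the NRF2 targets were mostly lower. In EV cells 14 of the 23 fell and 6 rose (median -0.38), against 32.1% lower, 31.0% higher and a median of 0.01 for all genes. In USP18 cells 18 fell and 4 rose (median -0.56), against 34.3% lower, 34.4% higher and a median of 0.01. Glutathione peroxidase 2 (GPX2) changed by -2.69 in EV cells and -4.18 in USP18 cells, and AKR1C2 fell by 0.95 in EV cells. The interaction was called lower for 16 and higher for 1 of these 23 (median -0.36), against 14.4% lower, 13.3% higher and a median of -0.01 for all genes. HMOX1, which makes heme oxygenase 1, went the other way in USP18 cells, with a log2 fold change of 1.55. The 11 NRF2 regulators mix opposite roles. Of them, 8 rose and 1 fell in EV cells (median 0.24). In USP18 cells 7 rose and 2 fell (median 0.62). MAFF rose by 2.18 in EV cells and 1.91 in USP18 cells, and SQSTM1, which encodes p62, by 1.24 and 1.31. BACH1 rose by 0.70 in USP18 cells (adjusted p = 5.0e-10). KEAP1 fell by 0.39 in EV cells (adjusted p = 1.4e-08) and fell by 0.67 in USP18 cells (adjusted p = 1.4e-12). NFE2L2 rose by 0.15 in EV cells (adjusted p = 0.0010) and had a log2 fold change of 0.03 in USP18 cells (adjusted p = 0.50). The interaction of KEAP1 was called (-0.28, adjusted p = 0.00048), while that of NFE2L2 was not (-0.12, adjusted p = 0.082). At the lower dose of 2.5 µM CP14, NFE2L2 was instead called lower than vehicle with either vector. Its log2 fold change was then -0.11 for EV (adjusted p = 0.025), whereas the USP18 vector gave -0.18 (adjusted p = 0.00029). The regulators' interaction was called higher for 3 and lower for 3 (median -0.11).

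The other reductases fell more often than they rose with 5 µM CP14, 11 lower and 7 higher of 23 in EV cells (median -0.27) and 15 lower and 6 higher in USP18 cells (median -0.38). Xanthine dehydrogenase (XDH) rose by 2.31 and 2.26, and AKR1C3 fell by 1.44 in USP18 cells. Their interaction was called lower for 9 and higher for 2 (median -0.28). Among 17 enzymes of hydrogen peroxide and superoxide, 9 fell and 4 rose in EV cells (median -0.09), and 11 fell and 5 rose in USP18 cells (median -0.27). Glutathione reductase (GSR) changed by -0.79 in EV cells and -1.31 in USP18 cells, and the interaction of this list was called lower for 8 and higher for 3 (median -0.13). Of 18 electron partners, 11 fell and 4 rose in EV cells (median -0.40) and 12 fell and 6 rose in USP18 cells (median -0.57). The desaturase FADS2, which takes electrons from cytochrome b5, changed by -2.03 in EV cells (SE 0.038) and -2.60 in USP18 cells (SE 0.041). CYP1A1, a P450 enzyme served by POR, rose by 2.38 (SE 0.39) and 2.20 (SE 0.40), with a far wider error. Their interaction was called lower for 7 and higher for 6 (median -0.14).

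Of 13 coenzyme Q synthesis genes, 8 fell and 2 rose with 5 µM CP14 in EV cells (median -0.42), and 7 fell and 2 rose in USP18 cells (median -0.39). COQ7, a hydroxylase of this route, changed by -1.08 in EV cells and -1.61 in USP18 cells. The interaction was called lower for 3 of the 13 and higher for 1 (median -0.07). Among 16 peroxisome partners of CAT, 7 fell and 1 rose in EV cells (median -0.13), and 8 fell and 2 rose in USP18 cells (median -0.14). The peroxisomal transporter ABCD3 changed by -0.71 in EV cells and -0.64 in USP18 cells, less than CAT itself, and the interaction was called lower for 1 and higher for 2 (median 0.04). Both vectors were compared with their own vehicle libraries, and 1 gene can stand on more than 1 list.

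The likeness of patterns was measured by Pearson correlation of log2 CPM over the 18 group means, among 16836 genes, as a description. Each group has its own libraries, but groups share a vector, and the 2 groups with 5 µM CP14 stand far from the rest. For this reason r is also given over the other 16, an addition chosen after the data were seen. The r over 16 keeps the difference between the vectors. No r was computed that leaves out both that difference and the 5 µM CP14 groups. NQO1 was most like EGLN3 (r = 0.99, and 0.97 without the 5 µM CP14 groups), GAMT (0.99 and 0.96), XXYLT1 (0.98 and 0.94), EI24 (0.98 and 0.95) and EARS2 (0.98 and 0.95). With each vector's mean subtracted, 0 of these 5 stayed among the top 5, which were then USP5, CPSF6, ACAA1, SRSF3 and CCT8. The 5 kept r of 0.99, 0.98, 0.98, 0.98 and 0.98 after subtraction, beside 0.99 for each of the new 5, so that the ranks changed among near-equal values. CAT was most like PCNA (0.99 and 0.98), MCCC2 (0.99 and 0.97) and SUMF1 (0.99 and 0.97), and POR was most like CPS1 (0.99 and 0.98), ZNRF3 (0.99 and 0.97) and UNC93B1 (0.99 and 0.98). CRYZ was most like ATP5PB (0.99 and 0.94), SDHA (0.98 and 0.92) and RMI2 (0.98 and 0.94). CYB5R3 was most like CSTF1 (0.96 and 0.87), AAAS (0.96 and 0.85) and OTUB1 (0.96 and 0.87). CYB5R1 was most like PRKAR2B (0.94 and 0.93), FBXO10 (0.93 and 0.93) and ARL14EPL (0.93 and 0.90). These 3 had 0.85, 0.82 and 0.83 once each vector's mean was subtracted, beside 0.94 to 0.99 for the genes named for the other 7. NQO2 was most like DNPEP (0.95 and 0.71), SLC1A5 (0.94 and 0.70) and TPRA1 (0.94 and 0.69), and AIFM2 most like SRA1 (0.94 and 0.61), SNX15 (0.94 and 0.69) and HSF1 (0.94 and 0.58).

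Among the 8 genes themselves, NQO1 and CAT had an r of 0.97 over the 18 group means, and 0.90 over the 16 without 5 µM CP14. POR and CAT had 0.95 and 0.91, CRYZ and CAT 0.94 and 0.90, and NQO1 and CRYZ 0.90 and 0.85. These r over 16 still hold the difference between the vectors and do not show a shared response to treatment. NQO2 and AIFM2 had 0.94 and 0.67, so that their likeness rests in part on the 2 groups with 5 µM CP14. NQO1 and NQO2 had -0.60 over 18 and 0.17 over 16, and NQO1 and CYB5R3 0.55 and -0.30. With each vector's mean subtracted, r over 18 was -0.72 for NQO1 and NQO2 and 0.84 for NQO1 and CYB5R3. CYB5R1 was opposed to CAT in both sets, with -0.78 and -0.84, and -0.65 after that subtraction.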

How the data were processed

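Bulk RNA was sequenced from 54 libraries of A549 cells, 3 for each of 18 groups of vector, compound and dose. The authors deposited 1 table of expected counts per gene, made with RSEM, and these were rounded to whole numbers. Libraries held 16673228 to 25609062 counts. Genes with low counts were removed by filterByExpr (minimum count 10, minimum total 15). Levels are CPM with TMM factors. Groups were compared with edgeR 4.0.16 quasi-likelihood tests (limma 3.58.1, R 4.3.3), and p-values were adjusted over all genes tested by the method of Benjamini and Hochberg; a gene is called at an adjusted p under 0.05. The fits were tested on simulated data. Alternatives were RLE size factors, other filters, a replicate block, DESeq2 1.42.0, other sets of libraries in a fit, and each library left out. The 8 genes and the gene lists were chosen with earlier results of these data known. Genes named beyond the 8 are USP18, NFE2L2 and KEAP1, of each list in a contrast up to 3 called genes with the largest change and groups that do not overlap, and the 5 genes most correlated with NQO1 and 3 with each other member. Also named are the 5 genes most correlated with NQO1 after each vector's mean was subtracted, and LINC01011, which overlaps NQO2. Marker genes, H2AFY2 and TYW3 were named as checks.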

Additional observations from a re-analysis of the deposited data

Results flagged for a closer look

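The test of the difference between the vectors' responses, the interaction of treatment and vector, picked 4 results out of 64 member tests, beside 6.29% of the tests of all genes. With 5 µM CP14, NQO1 changed by -0.58 more in USP18 than in EV cells on the log2 scale (adjusted p = 3.4e-09), CYB5R1 by 0.47 (adjusted p = 0.0027) and CAT by -0.28 (adjusted p = 0.035). With 1 µM CP14, NQO1 differed by 0.10, the opposite sign to 5 µM. The interactions of CAT at 5 µM and of NQO1 at 1 µM were lost when single libraries were left out (adjusted p up to 0.12 and 0.096). Groups of 3 libraries were not tested for single libraries far from the others.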

How the results depend on the processing

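Of the 92 called results, 90 kept their call with RLE size factors, 86 without a filter on low counts, 91 with at least 10 counts in every library, 90 with DESeq2 and 84 with all 54 libraries in one fit. With only the 2 groups compared, 81 of 83 kept it. The number reversed was 0 under each. Treatment calls numbered 39 to 46 over the alternatives (46 as reported), interaction calls 3 to 5 (4 as reported) and compound comparisons 36 to 37 (37 as reported).

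With the replicate block, 87 of the 92 kept their call, with 43 treatment calls, 3 interaction calls, 37 in compound comparisons and 5 for the vectors with vehicle. Replicate numbers showed no pairing: r between libraries of the same number ran from -0.14 to 0.13 over 459 pairs, and 18 of 54 libraries were most like their own number.

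Leaving out each library gave 36 to 47 treatment calls, 2 to 5 interaction calls, 35 to 37 in compound comparisons and 5 for the vectors with vehicle. The interaction calls fell to 2 without vehicle EV replicate 1, vehicle EV replicate 3 or vehicle USP18 replicate 3. Of the 5 genes most like NQO1, 0 stayed in the top 5 after each vector's mean was subtracted, but they kept r of 0.98 to 0.99, beside 0.99 for the new 5; the cause was not tested.

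Counts over all genes moved as well. Without a filter, CP2 against CP18 at 5 µM in USP18 cells went from 1 to 111, CP14 against CP18 at 1 µM from 3 to 227 in USP18 cells and from 3 to 172 in EV cells, and CP18 at 1 µM in EV cells from 58 to 414. With all 54 libraries in one fit, CP18 in EV cells went from 58 to 0 at 1 µM and from 1315 to 2188 at 5 µM. With only the 2 groups compared, CP18 at 5 µM went from 1680 to 3096 in USP18 cells and from 1315 to 425 in EV cells. With DESeq2, the vectors with vehicle went from 8792 to 7728. CYB5R1, with 284 to 548 counts per library, had the highest median coefficient of variation of the 8 genes, 6.49%.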
